A study of Mus musculus with 50 samples.

Results

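The major urinary protein (Mup) genes form a cluster on mouse chromosome 4 and encode small lipocalins made in the liver and released into urine. The 10 genes described here, Mup3, Mup7, Mup9, Mup11, Mup12, Mup14, Mup15, Mup19, Mup20 and Mup21, were taken from a named list, and all 10 were found among the 12180 genes of the expression table. The members were selected on their normalized expression in these livers, as seen in earlier results, so their levels and spread are given as a description and were not tested. The table also holds 10 other numbered Mup genes, which are Mup1, Mup2, Mup6, Mup8, Mup10, Mup13, Mup16, Mup17, Mup18 and Mup22.

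Urinary proteins of this family carry volatile pheromones and bind them in a hydrophobic pocket, and some act as signals themselves. Mup20, known as darcin, is a male odour protein that attracts females. In the liver, Mup transcription is strong in adult males and depends on the pulsed pattern of growth hormone secretion, on thyroid hormone and on glucocorticoids. Growth hormone acts through its receptor Ghr and the transcription factor Stat5b, and Zhx2 is a further liver regulator of Mup genes.

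The data are 50 liver RNA-Seq libraries from male mice of 1 cross. Both parents were F1 animals, 1 from B6.A4 and C57BL/6J and the other from B6.A6 and C57BL/6J, where B6.A4 and B6.A6 are C57BL/6J lines with chromosome 4 or 6 of strain A/J. Each animal therefore carried either 1 A/J copy or none at any place on chromosomes 4 and 6, and 2 C57BL/6J copies elsewhere. The study describes N2 animals of 5 weeks, fasted overnight, while the labels write F2 and adult; the caudate lobe was used. The labels name no treatment or genotype, so all libraries form 1 group, and only 2 numbers in the titles vary. These are a library number from 1 to 59 and a number after the letter I, with 48 distinct values, whose meaning the labels do not give. The study's text counts fewer mice than the 50 libraries, and libraries 8 and 10, and 22 and 55, share an I number. Some libraries may come from the same mouse, which was not tested. Several members, Mup12 among them, differed widely within both pairs. Genotypes were not used here.

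Values are normalized CPM, the reads of a gene scaled to a common library size. The reads counted in genes ranged from 9430126 to 24355042 per library with a median of 10791083, so 3 reads corresponded to 0.0951 to 0.259 normalized CPM. Hepatocyte markers fixed for the tissue check, 5 of 6 in the table and Alb among them, summed to between 72858 and 118964. The summed markers of Kupffer, endothelial, stellate, bile duct and red blood cells stayed between 16.99 and 348, and 2 of 4 lymphocyte markers were in the table and summed to at most 3.17. Library 24 had the lowest summed level of the 10 genes, and the main limma fits below that use all libraries were repeated without it. Fits on part of the libraries, differences between slopes and edgeR fits were not.

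The 10 genes all lie on the minus strand of chromosome 4 (GRCm38), from Mup7 at chr4:60066469-60070475 to Mup21 at chr4:62147932-62150863. In order along the chromosome the others are Mup9 from 60418046 to 60421952, Mup11 from 60658466 to 60662411, Mup12 from 60737383 to 60741326 and Mup14 from 61300023 to 61304000. Mup15 follows from 61435790 to 61439743, Mup19 from 61778324 to 61782269, Mup20 from 62050234 to 62054158 and Mup3 from 62083476 to 62087342. Mup7 and Mup21 are thus the outermost members, and Mup20, Mup3 and Mup21 lie together at the high end.

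The coding sequences of most members are nearly alike in the reference genome, which bears on how reads were assigned. A stretch of 90 coding bases near the start of the mature protein is shown for each distinct version (C57BL/6J reference transcripts of GENCODE M21), with capitals where a member differs from the most common base of the 10 members. Mup9, Mup11, Mup12, Mup14 and Mup19 share 1 version.
Mup9, Mup11, Mup12, Mup14 and Mup19: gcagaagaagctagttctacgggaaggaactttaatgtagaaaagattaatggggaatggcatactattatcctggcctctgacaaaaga
Mup7: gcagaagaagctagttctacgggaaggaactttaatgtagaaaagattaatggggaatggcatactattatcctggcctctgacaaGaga
Mup15: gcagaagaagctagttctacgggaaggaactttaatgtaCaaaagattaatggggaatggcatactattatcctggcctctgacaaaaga
Mup20: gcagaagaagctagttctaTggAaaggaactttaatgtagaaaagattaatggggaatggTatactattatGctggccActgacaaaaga
Mup3: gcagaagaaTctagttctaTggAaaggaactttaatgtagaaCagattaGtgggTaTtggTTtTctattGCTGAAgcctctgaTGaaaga
Mup21: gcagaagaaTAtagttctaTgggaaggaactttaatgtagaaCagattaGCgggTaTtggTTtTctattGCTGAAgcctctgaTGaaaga
Mup3 and Mup21 differed from the common version at 18 and 19 of the 90 bases and Mup20 at 5, whereas Mup7 and Mup15 differed at 1. Over the whole coding sequence Mup9 and Mup19 differed at 1 position (99.8% identity), and Mup9 and Mup12 at 3 positions (99.4%). Mup3 was 94.8% identical to Mup21 but 83.3% identical to Mup9. Mup20 was 91.0% identical to Mup9.

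Reads were counted only where they aligned to 1 place. Of all distinct 100-base stretches in the annotated transcripts of Mup3, 97.8% occur in no other annotated gene. For Mup21 the share was 95.5% and for Mup20 61.2%. It was 29.4% for Mup11, 28.1% for Mup9, 24.3% for Mup14, 23.9% for Mup7, 22.5% for Mup12, 2.66% for Mup15 and 0% for Mup19. The levels of the near-identical members, and of Mup15 and Mup19 most of all, are therefore uncertain, and no order of level among them is read from the counts. Reads that aligned to several places were tallied in a separate row, at 70790 to 153577 normalized CPM per library (median 114952). Over the 50 libraries that row had a Spearman correlation of 0.95 with the sum of all Mup rows, and 9 of the 10 genes most alike to it were Mup genes. Its part in the member values was not tested.

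The sequence before the transcription start is shown for Mup9, Mup15 and Mup3, because Mup9 and Mup15 are near-identical genes that varied differently between libraries and Mup3 stands for the divergent members. These are the 250 bases before each RefSeq start (GRCm38.p6, minus strand, C57BL/6J reference), with capitals for TATATAA and AATCAATAA.
Mup9, chr4:60421953-60422202: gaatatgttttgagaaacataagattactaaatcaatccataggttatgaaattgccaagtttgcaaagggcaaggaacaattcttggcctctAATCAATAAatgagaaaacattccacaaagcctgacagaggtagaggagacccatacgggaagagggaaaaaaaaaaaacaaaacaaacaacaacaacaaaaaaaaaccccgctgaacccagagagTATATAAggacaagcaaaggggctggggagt
Mup15, chr4:61439705-61439954: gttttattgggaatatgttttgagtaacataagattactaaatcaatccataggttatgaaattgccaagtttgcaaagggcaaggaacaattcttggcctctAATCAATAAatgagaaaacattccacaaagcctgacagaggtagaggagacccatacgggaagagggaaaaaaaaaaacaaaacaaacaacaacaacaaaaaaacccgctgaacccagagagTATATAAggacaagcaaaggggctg
Mup3, chr4:62087318-62087567: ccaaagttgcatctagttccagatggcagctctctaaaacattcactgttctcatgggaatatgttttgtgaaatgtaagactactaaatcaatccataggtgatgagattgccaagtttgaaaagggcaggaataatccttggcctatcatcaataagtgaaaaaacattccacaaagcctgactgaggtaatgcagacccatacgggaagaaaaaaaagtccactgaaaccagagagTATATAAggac
Of the 10 genes, 8 had such a sequence, all but Mup12 and Mup20. TATATAA was present on either strand in 5 of the 8, against 3.26% of 27025 promoters of the same length, and stood 31 bases before the start of Mup9, 25 before that of Mup15 and 11 before that of Mup3. The RefSeq starts differ from the gene spans given above. Those spans of Mup15 and Mup3 reach to 61439743 and 62087342, into the windows, and take in the marked TATATAA. The windows of Mup7, Mup11 and Mup14 held no TATATAA. The Mup11 window ends inside the stretch where Mup9 has it, and those of Mup7 and Mup14 end before that stretch. Bases past the RefSeq starts were not searched, so these windows do not show that the genes lack TATATAA. AATCAATAA, a sequence picked after the windows had been read, was in 6 of 8 against 0.259% of all promoters, and was not in those of Mup3 and Mup21. TTCNNNGAA, the core of the motif bound by STAT5, was in 0 of the 8 windows and in 7.18% of all promoters.

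Mup3 had the highest mean of uniquely aligned reads among the members and the smallest relative spread. Since 97.8% of its 100-base stretches are unique against 23.9% for Mup7, this rank and its share of the sum hold for uniquely aligned reads only. Its lowest, median and highest values were 1340, 4821 and 8713 normalized CPM (mean 5080 ± 1729, SD, n = 50), a 6.50-fold range. It made up 30.9% to 83.2% of the summed level of the 10 genes (median 51.4%). The sum itself ran from 1756 in library 24 to 25107 in library 32, or 0.239% to 3.10% of all reads counted in genes.

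Mup7 and Mup14 spanned wider ranges, with many uniquely aligned reads. Mup7 ran from 22.99 over a median of 2027 to 9630 normalized CPM (mean 2524 ± 2309, SD, n = 50), a 419-fold range. Mup14 ran from 21.9 over 776 to 3742 (mean 1037 ± 937, SD). Both were lowest in library 15 and highest in library 32, and both had 6 libraries set apart at the low end, below a gap from 115 to 255.6 for Mup7 and from 75.3 to 163 for Mup14.

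Mup11, Mup15 and Mup19 had fewer uniquely aligned reads. For these near-identical genes that gives no order of level. Mup11 had values of 4.25, 114.3 and 578 normalized CPM at its lowest, median and highest (mean 146 ± 139, SD, n = 50). Mup15 ran from 0.569 over 66.8 to 664 (141 ± 169), with 10 libraries at or below 2.93 and the other 40 at or above 10.1. Mup19 ran from 0.720 over 36.5 to 171 (48.8 ± 43.7). The lowest values of Mup15 and Mup19 came from 8 and 10 reads, so even these were above the 3-read level.

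Mup9 and Mup12 each had a median well below their own mean. Mup9 ran from 2.002 over 182.8 to 1543 normalized CPM (mean 505 ± 538, SD, n = 50), a 771-fold range. Mup12 ran from 1.01 over 58.8 to 2450 (519 ± 725), a 2422-fold range, and its values fell on either side of a gap. In 29 libraries Mup12 was at or below 79.1, and in the other 21 it was at or above 164.

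Mup20 and Mup21 varied less. Mup20 had values of 120.6, 608 and 2898 normalized CPM at its lowest, median and highest (mean 853 ± 625, SD, n = 50). Mup21 ran from 11.6 over 57.6 to 167 (63.1 ± 39.3). Library 24 was the lowest for both.

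**Figure D1:**
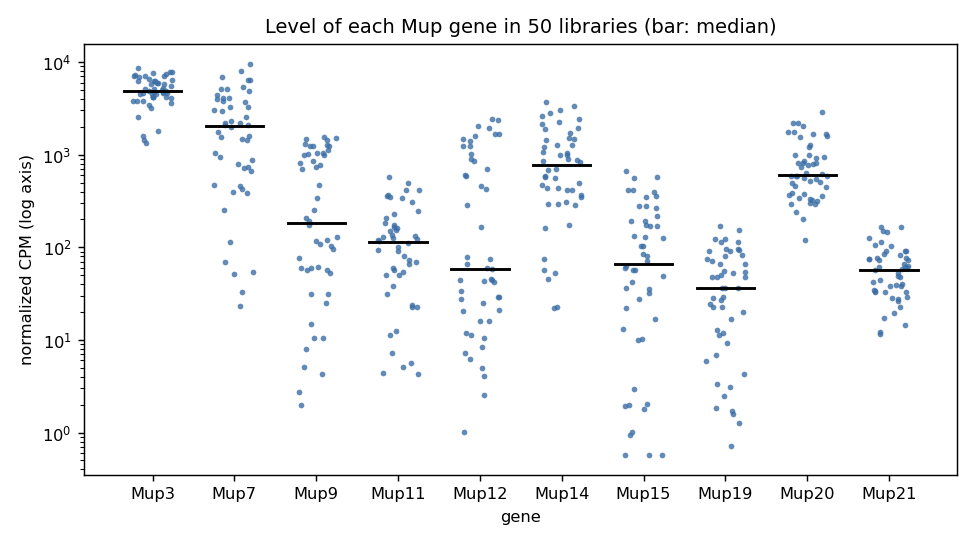
Each point is 1 of 50 libraries, with the gene on the horizontal axis and normalized CPM on a log vertical axis, and the bar marks the median. Mup3 sits between 1340 and 8713, while Mup12 spreads from 1.01 to 2450 with an empty stretch between 79.1 and 164.

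Levels of different genes can be set side by side per kilobase of exon only where most of the transcript is unique. For Mup3 and Mup21, with 97.8% and 95.5% of their 100-base stretches unique, the mean per kilobase was 4757 and 93.2. No such comparison is made for the other members.

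Among all genes with a mean of at least 1, the SD of log2(value + 0.5) ranked Mup12 at 2, Mup15 at 3, Mup9 at 5, Mup7 at 6 and Mup19 at 8. Mup11 and Mup14 ranked 13 and 14, Mup20 and Mup21 56 and 69, and Mup3 240. Counting error made up at most 0.276% of the variance of a member, in Mup21. It covers only the sampling of counted reads. Error from assigning reads among near-identical genes, Mup15 and Mup19 most of all, was not measured. Nor was error from aligning reads of A/J copies to the C57BL/6J genome. Library 45 was among the 5 lowest libraries of 8 of the 10 genes, libraries 15 and 24 of 7 each, library 22 of 6, and libraries 18 and 57 of 5 each.

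The members fell into sets that varied together. Correlations are Spearman values of the 50 libraries, which share normalization and, for near-identical genes, may share reads; they are given without a p-value. The 10 pairs among Mup7, Mup11, Mup14, Mup15 and Mup19 had values from 0.88 to 0.98. Mup3 had 0.91 to Mup7, 0.88 to Mup14, 0.81 to Mup11, 0.77 to Mup19 and 0.75 to Mup15. Mup9 and Mup12 were alike at 0.95, and their values to Mup7, Mup11, Mup14, Mup15 and Mup19 ran from 0.17 to 0.47. Mup21 lay between the sets, with 0.71 to Mup12 and 0.72 to Mup7. Mup20 had 0.71 to Mup14 but -0.27 to Mup9.

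**Figure D2:**
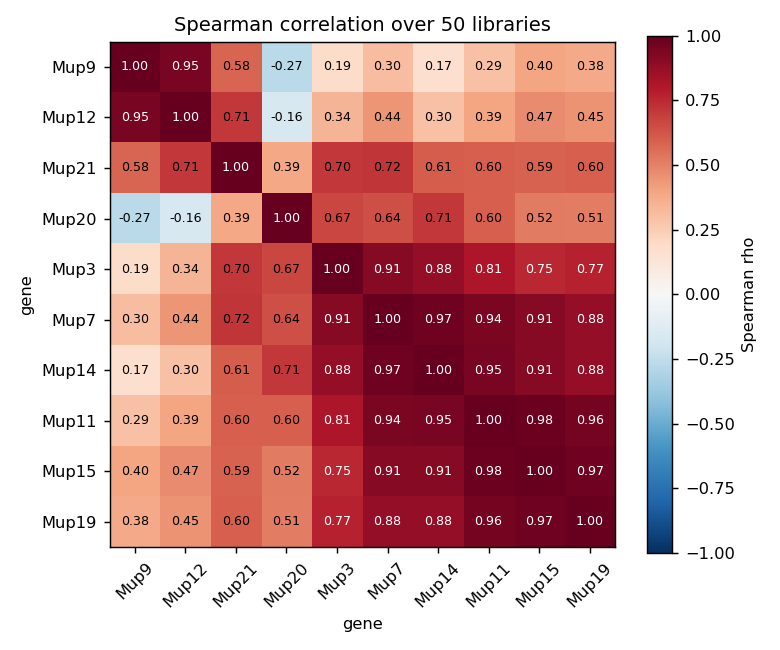
Each square gives the Spearman correlation of 2 Mup genes (both axes) over 50 libraries, from blue at -1 to red at 1. Mup9 and Mup12 pair at 0.95, the 5 genes at the lower right reach 0.88 to 0.98 with each other, and Mup20 against Mup9 is at -0.27.

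The same correlations were taken within each of 2 sets of library numbers. Mup9 and Mup12 had 0.92 in the 28 libraries numbered 1 to 30 and 0.98 in the 22 libraries numbered 31 to 59. Mup9 and Mup14 had 0.19 and -0.03. Mup9 and Mup20 had -0.30 and -0.26.

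For some pairs, the difference between Mup9 or Mup12 and another member, taken within each library, had an empty stretch in the middle. Mup9 minus Mup11, in log2 units, was at or below -0.26 in 25 libraries and at or above 2.33 in the other 25. Mup12 minus Mup14 was at or below -4.65 in 25 libraries and at or above -1.32 in the other 25. Mup7 minus Mup12 was at or below 1.39 in 25 and at or above 4.45 in the other 25. This measure was chosen after the values were seen.

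Of the 45 pairs of members, 7 had their widest gap between 25 and 25 libraries, and the same 25 libraries stood on the same side in all 7. The widest gaps were 1.47 to 3.33 log2 units. Each of the 7 pairs held Mup9 or Mup12, and the 7 are not separate observations for that reason. There are 16 pairs of Mup9 or Mup12 with another member, and the other 9 had their widest gap elsewhere. It lay between 24 and 26 libraries for Mup3 with Mup9 and for Mup12 with Mup19, between 27 and 23 for Mup7 with Mup9, between 20 and 30 for Mup3 with Mup12, and between 30 and 20 for Mup12 with Mup20 and with Mup21. For Mup9 with Mup15 it set 4 libraries apart from 46, for Mup9 with Mup21 2 from 48, and for Mup12 with Mup15 17 from 33. Libraries with a high Mup9 relative to Mup11 were also those with a high Mup12 relative to Mup14. The relation of these 2 sides to the chromosome 4 genotype, or to how reads of A/J copies were assigned, was not tested.

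**Figure D3:**
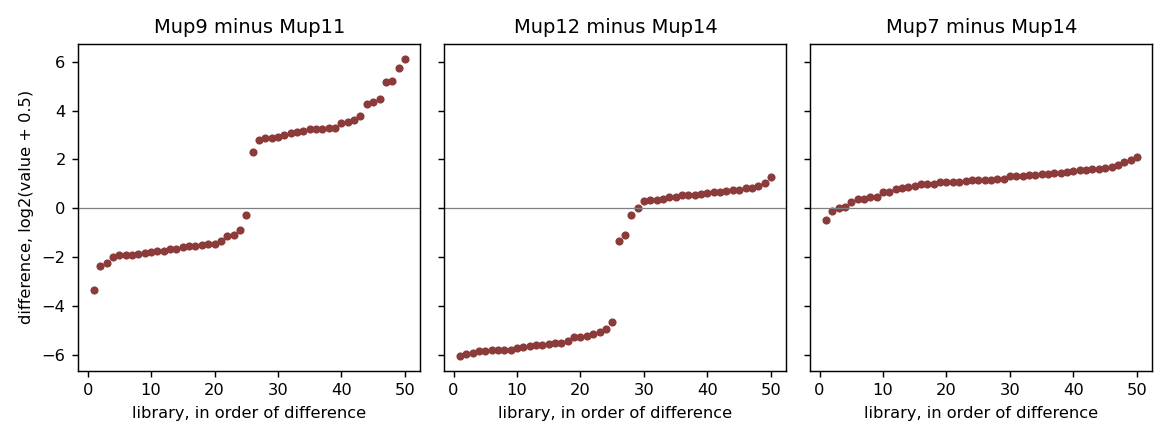
Each point is 1 library, placed by its rank on the horizontal axis and by the difference of 2 Mup genes in log2(value + 0.5) on the vertical axis. Mup9 minus Mup11 and Mup12 minus Mup14 jump between the 25 lower and the 25 higher libraries, from -0.26 to 2.33 and from -4.65 to -1.32, and Mup7 minus Mup14 rises without such a jump.

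The genes outside the family that varied most like each member, ranked by absolute Spearman correlation, differed between the sets. Mup9 was most like Alad, which encodes a heme synthesis enzyme (Spearman 0.81), and Hdhd3 (0.72), and Mup12 was most like the same genes (0.76 and 0.73). Alad lies at chr4:62509169-62519918 and Hdhd3 at chr4:62499008-62503467, both beyond Mup21 with other genes, Slc31a1 and Prpf4 among them, in between. Alad ranged from 44.9 over 63.7 to 113 normalized CPM. Of the 20 non-Mup genes with the largest correlation to Mup9 in either direction, 11 were on chromosome 4, and 6 of the 20 for Mup12. Of the 11409 non-Mup genes with a mean of at least 1, 6.20% are on that chromosome.

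The other members had few chromosome 4 genes in their lists, from 0 of 20 for Mup3 and Mup7 to 3 of 20 for Mup11. Mup7 was most like Cyp7b1, an oxysterol hydroxylase (0.93), and Cyp2d40 (0.89). Mup14 was most like Cyp7b1 (0.88) and Cyp2d9, a male-biased steroid hydroxylase (0.86), and Mup11 was most like Cyp2d9 (0.87) and Cyp7b1 (0.85). Mup15 was most like Cyp4a12a, a fatty acid hydroxylase that is male-biased in mouse liver (0.86), and Cyp7b1 (0.85), and Mup19 was most like Cyp4a12a (0.83) and the carboxylesterase Ces2c (0.81).

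Mup3 was most like the sulfotransferase Sult2a8 and the serpin Serpina12 (both 0.88). Mup20 was most like the glucuronosyltransferase Ugt2a3 and the transporter Slc22a30 (both 0.77). Mup21 was most like the fatty acid elongase Elovl3 (0.82) and ran opposite to the transporter Slc22a26 (-0.81).

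The relation of the Mup genes to sex-dependent liver genes was described with a score from genes outside the family. Members, gene lists and score were chosen with earlier results of these data known. The p-values below therefore describe this relation and are not an independent test of it. The score also holds Cyp7b1, Cyp2d9, Elovl3 and Slc22a26, named above as most like some members. Its relation to the members therefore partly restates those correlations. Log2 values were standardized gene by gene and averaged over 26 male-biased and over 24 female-biased genes, none on chromosome 4 or 6, and the female-biased average was subtracted. It ran from -3.34 in library 24 to 1.75 in library 11, all in male mice. All 10 members rose with the score (limma, adjusted p under 0.05 over 11381 genes), while 11.8% of all genes tested rose and 23.1% changed in either direction. The 10 other numbered Mup genes also rose, 10 of 10.

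The rise was steep for the set of Mup7. Mup7 rose by 1.74 log2 units per unit of score (SE 0.10, limma adjusted p = 7.49e-19). Mup14 rose by 1.45 (SE 0.09, limma adjusted p = 4.44e-18), and Mup11, Mup19 and Mup15 by 1.38, 1.40 and 1.99. Mup3 rose by 0.47 (SE 0.04, limma adjusted p = 2.88e-15), in a narrower range of levels. Mup21 rose by 0.69 (SE 0.06, limma adjusted p = 2.43e-12) and Mup20 by 0.58 (SE 0.09, limma adjusted p = 4.46e-06).

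Mup12 and Mup9 rose with larger errors. Mup12 rose by 1.15 (SE 0.34, limma adjusted p = 0.00972). Mup9 rose by 0.82 (SE 0.31, limma adjusted p = 0.0496), at the edge of the threshold, and without library 24 its adjusted p was 0.0642. With edgeR on counted reads it was 0.186, and over all 14 alternatives it ran from 0.0238 to 0.186.

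**Figure D4:**
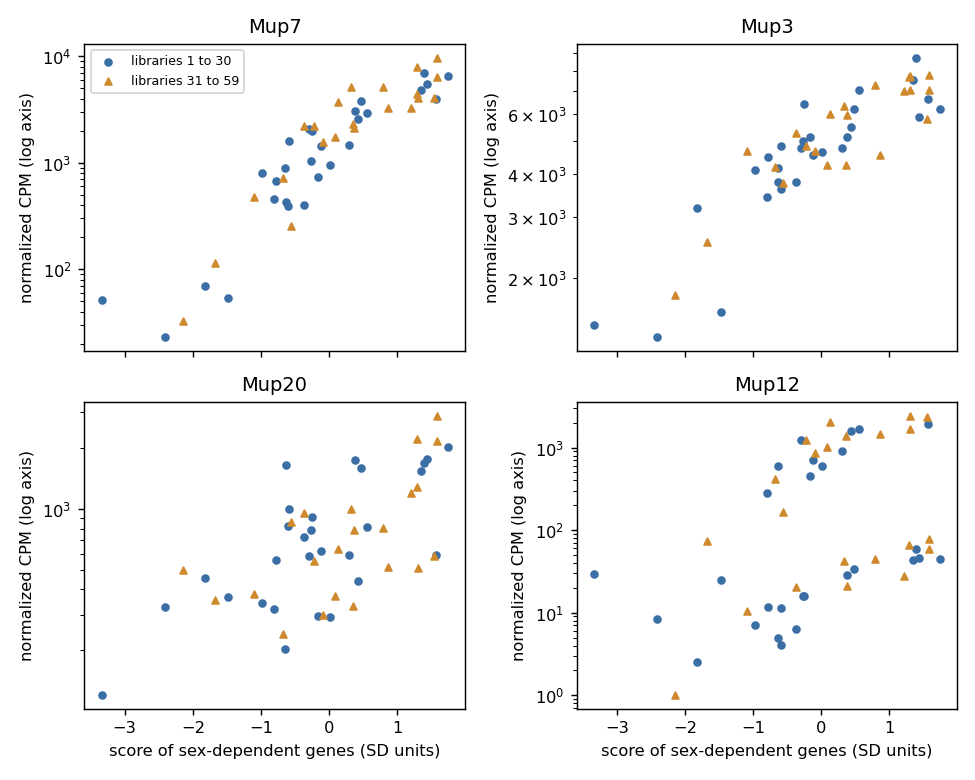
Each point is 1 library, with the score of sex-dependent genes on the horizontal axis and normalized CPM on a log vertical axis, circles for libraries 1 to 30 and triangles for 31 to 59. Mup7 and Mup3 rise along 1 band. Mup12 has 21 libraries at or above 164 and 29 at or below 79.1. This cut by level puts 46 libraries on the same side as the 25 to 25 split of Mup9 minus Mup11.

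The rises were also present within the library sets. In libraries 1 to 30, 8 of the 10 members passed the threshold (18.3% of all genes did), and in libraries 31 to 59, 7 of 10 (1.89% of all genes). Mup9 and Mup12 did not pass in either set. The slopes of Mup12 there were 1.01 (limma adjusted p = 0.0966) and 1.15 (limma adjusted p = 0.362). Mup20 had a slope of 0.56 in the second set (limma adjusted p = 0.0555). For 0 of 10 members did the slope differ between the sets (limma interaction, adjusted p from 0.852 to 0.991), as for 0% of all genes, and 0 of 10 had an unadjusted p under 0.05, against 6.18% of all genes.

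The genes of growth hormone signalling and Mup regulation were examined in the same fit. Of 37 tested, 10 rose and 6 fell with the score, beside 11.8% and 11.2% of all genes, with a median slope of 0.02 against 0.00084 over all genes. Igfbp3, which carries insulin-like growth factors in plasma, fell by 0.31 (SE 0.04, limma adjusted p = 5.31e-09). Ghr, the growth hormone receptor, rose by 0.19 (SE 0.03, limma adjusted p = 1.61e-06). The estrogen receptor gene Esr1 fell by 0.22 and Tsku rose by 0.41.

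The named regulators changed little. Igf1, the growth factor that the liver secretes under growth hormone, rose by 0.09 (SE 0.02, limma adjusted p = 0.00232). Zhx2 rose by 0.07 (SE 0.02, limma adjusted p = 0.0457), from a range of 6.05 to 12.4 normalized CPM. Stat5b, at 35.7 to 54.2 normalized CPM, had a slope of -0.01 (SE 0.02, limma adjusted p = 0.694).

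Of the 9 other lipocalin genes tested, 2 rose and 2 fell, beside the same shares of all genes. The prostaglandin synthase gene Ptgds fell by 0.50, the acute-phase gene Lcn2 fell by 0.32, Orm1 rose by 0.24 and C8g, a complement subunit, rose by 0.08. Of 40 non-Mup genes within 5 Mb of the cluster, 7 rose and 2 fell with the score, a share near the 23.1% of all genes. Their median slope was 0.0025, against 1.26 for the 10 members. Of sex-dependent genes kept out of the score, 3 of 4 male-biased genes rose (Cyp4a12b, Cyp4a12a and Slco1a1), and 4 of 5 female-biased genes fell (Trim24, Cyp4a14, Atp6v0d2 and Tox).

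The number after the letter I in the titles was the other label that varied, and 3 of 10 members fell as it rose (limma, adjusted p under 0.05 over 11431 genes). Of all genes tested 14.2% changed, 6.73% falling and 7.49% rising. Mup20 had a slope of -1.12 log2 units per 100 units of the number (SE 0.23, limma adjusted p = 0.000979). Mup21 had -0.88 (SE 0.23, limma adjusted p = 0.00668) and Mup3 -0.49 (SE 0.15, limma adjusted p = 0.0266).

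The other 7 did not pass. Mup7 had a slope of -1.42 (SE 0.56, limma adjusted p = 0.0777) and Mup14 of -1.17 (SE 0.47, limma adjusted p = 0.0843), with Mup11, Mup15 and Mup19 at -1.03, -1.20 and -0.997. Mup9 and Mup12 had slopes of 0.30 (SE 0.75) and 0.07 (SE 0.84). With edgeR on counted reads, which called 1596 of 11431 genes, 6 members fell, the same 3 and Mup7, Mup11 and Mup14 (edgeR adjusted p = 0.0207, 0.0485 and 0.0408).

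Genes of the score moved with the same label, which was not tested for the score itself. Of its 26 male-biased genes 12 fell and 0 rose, and of its 24 female-biased genes 10 rose and 1 fell. Hsd3b5 fell by 1.42 and Cyp17a1 rose by 1.27 per 100 units. With the score in the model, 0 of 10 members passed, and 3.16% of all genes did. Mup20 then had a slope of -0.67 (limma adjusted p = 0.0657) and Mup3 of -0.02 (limma adjusted p = 0.938), and the slopes of Mup7, Mup11, Mup14, Mup15 and Mup19 turned positive, none past the threshold.

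Within the library sets 0 of 10 members passed for the I number in either set, where 9.01% and 0.131% of all genes did. At an unadjusted p under 0.05 there were 2 of 10 in the first set and 5 of 10 in the second, against 25.1% and 14.9% of all genes. Mup20 had slopes of -1.04 (limma adjusted p = 0.0534) and -1.26 (limma adjusted p = 0.068), Mup21 of -0.82 and -0.80, and Mup3 of -0.38 and -0.55. No difference of these slopes between the sets passed for a member (limma adjusted p from 0.857 to 0.996), against 0.035% of all genes, and 0 of 10 had an unadjusted p under 0.05, against 8.23% of all genes.

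**Figure D5:**
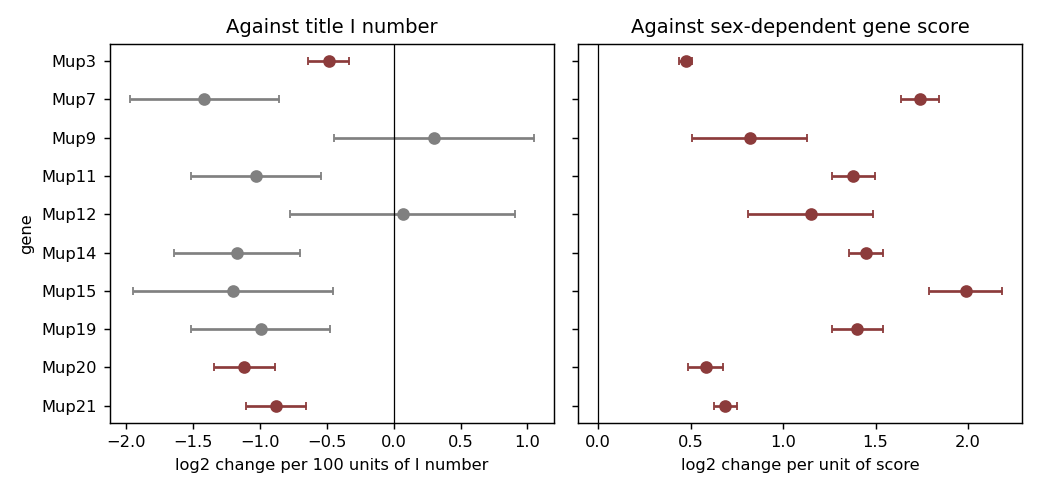
Points are slopes and bars 1 SE for each gene, in log2 units per 100 units of the title I number on the left and per unit of the score on the right, with red for adjusted p under 0.05. Mup3, Mup20 and Mup21 are red on the left, all 10 genes are red on the right.

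Of the growth hormone and regulator genes, 3 of 39 rose and 4 fell with the I number, beside 7.49% and 6.73% of all genes. Ghr fell by 0.37 (SE 0.07, limma adjusted p = 0.000527), Tsku fell by 0.65 and Igfbp3 rose by 0.48. Stat5b had a slope of 0.05, Zhx2 of 0.06 and Igf1 of -0.14, none past the threshold. Of 9 other lipocalin genes 2 rose, Lcn2 by 0.85 and Orm3 by 0.69, and of 40 neighbouring genes 3 rose and 3 fell, near the 14.2% of all genes that changed.

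Between libraries 1 to 30 and libraries 31 to 59, 0 of 10 members passed the threshold in limma, and 13.5% of all genes did, 7.06% higher and 6.41% lower in the second set. With edgeR 0 of 10 passed as well, and 1 of 10, Mup21, had an unadjusted p under 0.05 in limma, against 29.1% of all genes. All 10 means were higher in the second set on the log2 scale, by 0.10 for Mup20 to 1.45 for Mup15 (limma adjusted p from 0.171 to 0.849). Mup7 was 1980 ± 1994 (SD, n = 28) in the first set and 3216 ± 2536 (SD, n = 22) in the second, and the ranges overlapped. Of 39 growth hormone and regulator genes, 5 were higher in the second set and 0 lower, near the 13.5% of all genes that changed, among them Nr3c1, the glucocorticoid receptor gene, by 0.26, and Insr, the insulin receptor gene, by 0.19. Of the 9 other lipocalins 0 passed.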

How the data were processed

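Liver mRNA of 50 libraries was prepared with a stranded kit, sequenced as pairs, aligned with HISAT2 to GRCm38.p5 and counted with HTSeq 0.11.1, per the labels and the study's methods. The authors removed low-count genes and normalized with edgeR; the deposited values are a signal in normalized CPM. The submitters' notes also name FastQC and Trim Galore, while the methods name Trimmomatic. The 12185 rows held 5 counters of unassigned reads (21.2% of reads), which were left out of library sizes and tests. Values were whole multiples of 1 read (100% within 0.01 reads). The 2 varying title numbers and the score were fitted with limma 3.58.1 (R 4.3.3) on log2(value + 0.5), over genes with a mean of at least 1, 2-sided, with Benjamini-Hochberg adjustment over all genes and a threshold of 0.05. On recovered reads edgeR 4.0.16 (quasi-likelihood) called 1596 genes for the I number, 1679 between sets and 2637 for the score. DESeq2 1.42.0 gave size factors for an alternative. The members, gene lists and scores were chosen with earlier results of these data known. Named genes were every member, other numbered Mup genes, up to 4 genes per list with the smallest adjusted p past the threshold, the 2 non-Mup genes most like each member, and Zhx2, Stat5b, Ghr and Igf1; the 4-gene rule covers each fit separately. One gene that this rule names is not reported here. The fit was tested on simulated data, where for the score it recovered 93 of 100 genes changed by 0.2 and 100 of 100 changed by 0.5 log2 units per SD, with 14 false calls among 11420 genes. Recovery of changes of this size at the spread of the 10 members was not tested. The score had an SD of 1.14, and the SE per unit of score was 0.31 for Mup9 and 0.34 for Mup12. Libraries 8 and 10, and 22 and 55, share an I number, and nothing states whether they come from 1 animal. Mup12 was at 1918 and 11.4 normalized CPM in libraries 8 and 10, and at 24.9 and 1024 in 22 and 55. Mup20 differed less, at 594 and 999, and at 368 and 372. Whether each pair comes from 1 animal was not tested. The p-values set a slope or difference against the residual spread between these libraries, which were taken as independent. Sequences are from GENCODE M21 and RefSeq (GRCm38.p6).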

Additional observations from a re-analysis of the deposited data

Results flagged for a closer look

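Reads that aligned to several places, which no comparison of genes used, made up 11.6% of all reads and were at least 70790 normalized CPM in every library, far above the limit that a count of 0 allows. This row moved with the Mup genes, with a Spearman correlation of 0.93 to Mup7, 0.90 to Mup11, 0.88 to Mup15 and 0.86 to Mup3, but 0.44 to Mup9, 0.54 to Mup12 and 0.55 to Mup20. Over all non-Mup genes with a mean of at least 1 the median absolute correlation was 0.20. A straight line through the 50 libraries rose by 3.01 units of this row per unit of summed Mup rows. How many of these reads came from Mup transcripts was not tested.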

How the results depend on the processing

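No paired analysis was possible because all libraries form 1 group. For the score, all 10 members kept their direction under the 14 alternatives, and calls were lost only for Mup9, under 8 of them. For the I number, 3 members passed in limma, 6 with edgeR on recovered reads and 0 with the score as a covariate, where all genes fell from 1625 calls to 361. Slopes reversed with the score as a covariate for Mup7 (0.38), Mup11 (0.42), Mup14 (0.33), Mup15 (0.95) and Mup19 (0.49), with edgeR for Mup12 (-0.52), and between library sets with the I number as a covariate for Mup20 (-0.13). The causes were not tested. Counts over all genes also moved between sets with counted reads as a covariate (1540 to 807) and for the score with the I number as a covariate (2624 to 1587) or without the 2 libraries of most extreme score (2624 to 1553). Scaled to the total of all genes without Mup symbols, or of all gene rows, the rising share of called genes was 26.3% and 32.9% for the I number against 52.7%, and 41.1% and 36.2% between sets against 52.4%. For the score it was 39.4% when scaled to all gene rows against 51.2%. Leaving out library 24, scaling to all gene rows and dropping the score's most distant libraries were chosen after seeing the data. Mup15 and Mup19 rest on few unique sequences.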
